A study of Mus musculus with 28 samples.

Results

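The genes described here encode the nuclear subunits of the mitochondrial respiratory chain and ATP synthase, with some of their assembly factors, and were followed through the life of tumor-antigen-specific Th1 and Th17 cells. A gene was taken when its symbol begins with Nduf, Sdha, Sdhb, Sdhc, Sdhd, Uqcr, Cox4i, Cox5, Cox6, Cox7, Cox8 or Atp5 and its array probe set names 1 gene only. This gave 93 of the 19938 genes measured. Of these, 36 belong to complex I, 4 to complex II, 8 to complex III, 17 to complex IV and 17 to complex V, and 11 are assembly factors. Where a gene had several probe sets, the one with the highest mean stood for it. The measured level is the log2 RMA value, a normalised hybridisation signal in which a step of 1 is a doubling. Of the 93 genes, 83 lay above the median gene, whose mean level was 7.18.

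The respiratory chain sits in the inner mitochondrial membrane and passes electrons from NADH and succinate to oxygen. Complex I takes electrons from NADH, complex II from succinate, complex III hands them from ubiquinol to cytochrome c, and complex IV passes them to oxygen. Complexes I, III and IV pump protons, and complex V, the ATP synthase, uses the gradient to make ATP. Most subunits are encoded in the nucleus and a few in mitochondrial DNA, and 0 of the 13 mitochondrially encoded subunits were measured here under a single symbol. Activated T cells rely strongly on glycolysis while they divide, and long-lived T cells draw more of their energy from oxidative phosphorylation.

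The cells were CD4+ T cells of BwTRP1 Rag1-/- mice, which carry a T cell receptor for the melanocyte antigen TRP1. They were stimulated with TRP1 peptide on irradiated C57/B6 splenocytes and cultured for 7 days as Th1 cells (IL-12 and anti-IL-4) or as Th17 cells (IL-1, IL-6, IL-21, TGFβ2 and antibodies to IL-2, IL-4 and IFN-γ), with IL-2 medium and fresh cytokines later in the culture and IL-23 for the Th17 cells. The cultured cells are the day 0 samples, and the remainder were transferred to B6.PL (Thy1.1+) mice that had received 5 Gy of irradiation. At day 5 and day 15 after transfer, donor cells (Thy1.2+) were enriched for CD4 and sorted from pooled spleens and inguinal lymph nodes. Each sample was divided, and 1 part was stimulated for 2 h with aCD3/aCD28, antibodies to the T cell receptor complex and its co-receptor. These parts are called restimulated below and the others unstimulated. Each of the 28 arrays holds 1 such part. There were 3 unstimulated and 3 restimulated arrays of Th1 cells at day 5, 3 and 3 of Th17 cells at day 5, 2 and 2 of Th1 cells at day 15, 4 and 4 of Th17 cells at day 15, and 1 array of each kind at day 0. The irradiated hosts and the pooled organs are common to all arrays after transfer, and nothing in the labels ties a replicate to a mouse of its own, so p-values speak only of the spread between these samples.

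Array medians ran from 6.77 to 7.09 and arrays of a group correlated at 0.987 to 0.998. The 8 measured of 9 markers of CD4 T cells had group means of 11.88 to 12.29, and 0 of the 8 were called between day 5 and day 15. Markers of red cell precursors were another matter: 6 of 12 were measured (Alas2, Slc4a1, Car1, Epb42, Klf1 and Gata1), and their mean was 6.34 to 6.66 in the 4 day 5 groups against 9.48 and 8.93 in unstimulated and restimulated Th1 cells at day 15 and 9.17 and 8.05 in Th17 cells. All 6 were called higher at day 15 in all 4 comparisons of days. The mean of the 14 myeloid markers was 6.34 to 7.11 in Th1 arrays grouped by day and condition and reached 7.90 in unstimulated Th17 cells at day 5 and 9.55 at day 0. Platelet markers (4 of 5 measured) averaged 10.2 to 10.9 at day 0. Between day 5 and day 15 they went from 6.27 to 7.73 and from 6.36 to 7.37 in unstimulated and restimulated Th1 cells, and from 6.33 to 7.11 and from 6.40 to 6.75 in Th17 cells, with 4, 3, 3 and 1 of the 4 called higher. The CD8 genes Cd8a and Cd8b1 were lower at day 15 on average, from 7.75 to 7.37 and from 7.53 to 7.20 in Th1 cells and from 7.54 to 7.34 and from 7.43 to 7.23 in Th17 cells, without overlap of arrays, and 1, 0, 0 and 0 of the 2 were called. The part of these cells in the results was not tested. Natural killer cell markers 7.49 and 7.01 in Th1 cells at day 15 against 5.98 to 6.73 elsewhere, B cell markers 5.84 to 6.48 throughout, and dendritic cell markers 8.20 to 8.81 at day 0 and 7.07 to 7.42 after transfer.

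Promoter sequences of 77 of the 93 genes were found in the RefSeq table (mouse build GRCm38.p6), each running from 250 bases before to 50 bases after the annotated start. Motifs were searched on both strands by exact match. NRF-1 and the ETS factor GABP are classical activators of nuclear genes for respiration, and the stretches below are shown because they hold these letters, or hold none, in genes whose values are described further on. Capitals mark a match to the NRF-1 motif (GCGCA, any 1 base, then GCGC) or the ETS motif (CCGGAAG) on either strand, and position 1 is the start. The stretch of Sdhd is chr9:50603850-50603949 on the minus strand, positions -100 to -1, and holds both motifs. That of Ndufs6 is chr13:73328483-73328582, minus strand, positions -100 to -1. That of Ndufa4, chr6:11907451-11907550, minus strand, covers the same positions and holds neither. The other 4 lie in the transcribed bases next to the start: Atp5g3 at chr2:73911297-73911322 (minus strand, 5 to 30), Uqcrc1 at chr9:108936650-108936677 (plus strand, 3 to 30), Sdhb at chr4:140961271-140961294 (plus strand, 1 to 24) and Ndufs8 at chr19:3912743-3912767 (minus strand, 8 to 32).
Sdhd: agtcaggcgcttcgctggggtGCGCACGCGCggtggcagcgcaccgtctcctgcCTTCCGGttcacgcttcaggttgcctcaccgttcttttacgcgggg
Ndufs6: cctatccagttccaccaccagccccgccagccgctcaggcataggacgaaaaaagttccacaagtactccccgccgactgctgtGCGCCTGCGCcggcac
Ndufa4: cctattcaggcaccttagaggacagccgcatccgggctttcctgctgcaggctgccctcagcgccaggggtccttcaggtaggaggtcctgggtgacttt
Atp5g3: gccgcaccGCGCTTGCGCgcccagcc
Uqcrc1: acaGCGCTTGCGCctcagactccgctct
Sdhb: gagaaaCCGGAAGcggccttccac
Ndufs8: ggctccgcCTTCCGGttgaaccgca

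The NRF-1 motif was found in 20 of the 77 promoters, or 25.97% (95% exact binomial interval 16.64 to 37.23%), against 5.19% of all 27025 genes in the table and 7.85% of the 15614 measured ones. The ETS motif was found in 21, or 27.27% (17.74 to 38.62%), against 9.93% of all genes and 13.6% of measured ones. The YY1 motif was found in 5 (6.49%, interval 2.14 to 14.51%, against 1.00% of all and 1.49% of measured genes). A cAMP response element (TGACGTCA) was found in 4 (5.19%, interval 1.43 to 12.77%, which covers the 2.03% of all and 2.72% of measured genes). The Sp1 box (GGGCGG) was in 48.05% (36.52 to 59.74%), above the 38.2% of all genes and below the 52.9% of measured ones. The E-box (CACGTG) was in 7.79% (2.91 to 16.19%), against 8.09% of all and 9.50% of measured genes. In all, 36 of the 77 promoters held an NRF-1 or ETS match and 5 held both. These matches describe letters, not bound factors, and intervals cover counting error only.

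The mean of the 93 genes was lower at day 15 than at day 5 in both cell types, with and without restimulation. The unstimulated Th1 arrays had means of 10.00, 9.97 and 10.08 at day 5 and 9.70 and 9.71 at day 15. The restimulated Th1 arrays had 9.84, 9.93 and 9.91 at day 5 and 9.52 and 9.59 at day 15. In both conditions every Th1 array of day 15 lay below every Th1 array of day 5. The difference was -0.31 without restimulation and -0.34 with it, or a change in signal of -19.6% and -20.8%, against SDs within groups of 0.04 and 0.05. Fewer cells carrying a transcript and less of it per cell cannot be told apart in such bulk samples.

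The Th17 arrays also had lower means at day 15, with smaller differences. Unstimulated, they read 9.93, 9.87 and 9.91 at day 5 and 9.80, 9.73, 9.62 and 9.81 at day 15. These groups did not overlap, and their means differed by -0.17 (-10.8% in signal, SD within groups 0.07). Restimulated, they read 9.75, 9.91 and 9.95 at day 5 and 9.58, 9.61, 9.68 and 9.76 at day 15, a difference of -0.21 (-13.7% in signal, SD within groups 0.09). Here 1 array of day 5 (9.75) lay just below the highest array of day 15 (9.76).

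**Figure D1:**
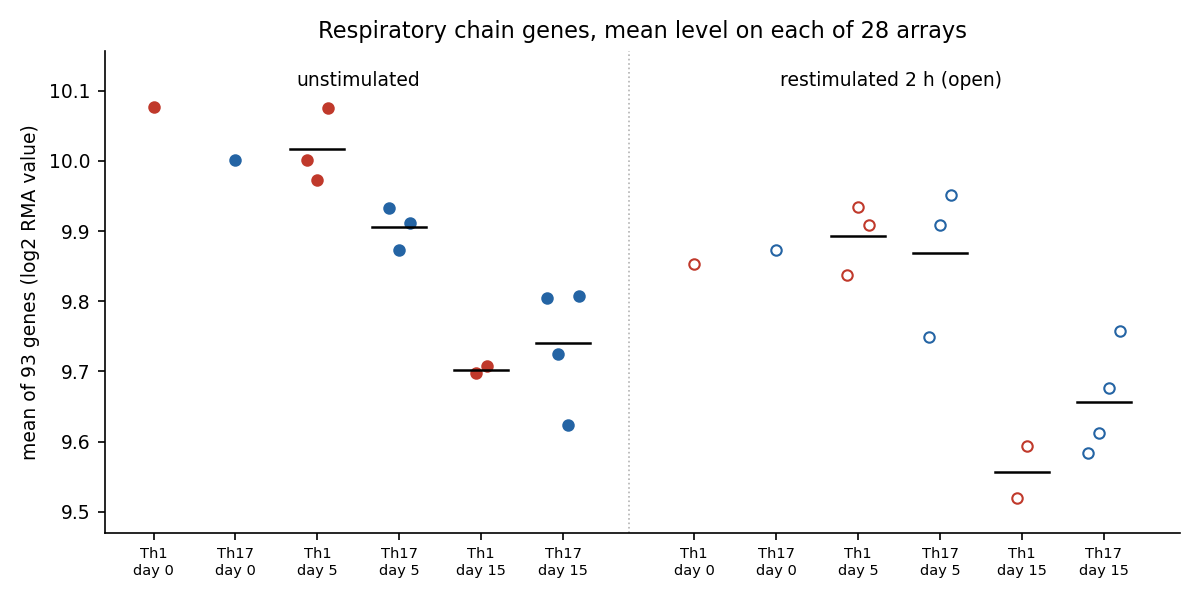
Mean log2 level of the 93 genes (vertical axis) on each of the 28 arrays, by cell type and day (horizontal axis), with unstimulated arrays on the left (filled) and restimulated ones on the right (open). Red is Th1 and blue is Th17, and bars are group means. The day 15 arrays lie between 9.52 and 9.81 and the day 5 arrays between 9.75 and 10.08.

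Gene by gene, the fall was broad. A gene was called when its adjusted p was under 0.05 (limma across all 19938 genes, Benjamini-Hochberg). In unstimulated Th1 cells 41 of the 93 genes were called lower at day 15 and 1 higher. Among all genes 16.1% were called in that comparison, 8.72% lower and 7.33% higher, against 44.1% of the 93 called lower. In restimulated Th1 cells 52 were called lower and 1 higher (55.9% lower, against 15.7% of all genes called, 8.64% lower and 7.07% higher). In unstimulated Th17 cells 18 were called lower and 1 higher (19.4% lower, against 9.64% of all genes called, 5.28% lower and 4.37% higher). In restimulated Th17 cells 33 were called lower and 0 higher (35.5% lower, against 13.5% of all genes called, 8.42% lower and 5.05% higher). In this fit of all 24 arrays after transfer the members' share called lower was thus above the background in each comparison. A separate fit, restricted to genes above the median level and adjusted over those alone, included 83 of the 93. It called 52, 53, 24 and 39 of the 83 lower, against 19.4%, 19.3%, 11.5% and 18.9% of all genes in that fit.

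Most genes that missed the call also lay below zero. The median difference of the 93 was -0.33, -0.34, -0.16 and -0.22 in the order just given, and that of all genes 0.003, -0.001, 0.053 and -0.051. Of the 93, 85, 87, 79 and 83 were below zero, as were 49.4%, 50.3%, 39.5% and 61.8% of all genes. In all 4 comparisons 71 genes were below zero, and the share of all genes that were so was not counted. Unstimulated and restimulated parts came from divided samples, so the 4 comparisons are not separate. Of the 18 genes with several probe sets, which have 44 between them, all 44 probe sets were below zero in both Th1 comparisons and 41 in each Th17 comparison.

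The lists of genes called lower can be set side by side for Th1 and Th17 cells, which share no array. Both were called in the same fit with a shared estimate of spread, so they are not independent lists. No overlap over all genes was counted beside them. Of the 41 genes called in unstimulated Th1 cells and the 18 in unstimulated Th17 cells, 16 were on both lists (39.0% and 88.9% of them). Of the 52 and 33 called in restimulated cells, 28 were on both (53.8% and 84.8%). Across all 4 comparisons 11 genes were called lower every time: Ndufa1, Ndufa4, Ndufb8, Ndufb9, Ndufc1, Ndufs8 and Ndufv2 of complex I, Sdhb and Sdhd of complex II, Cox5b of complex IV and Atp5g3 of complex V. Not all of these are equally firm: in unstimulated Th17 cells the call of Sdhb was lost in 12 of 15 alternatives (limma adjusted p = 0.00765 to 0.232) and that of Sdhd in 11 of 15 (adjusted p = 0.00848 to 0.226), cyclic loess and the replicate block among them. A further 18 were called in 3 of the 4, 12 in 2, 22 in 1 and 30 in none, and no like count over all genes was made. These lists grew or shrank with single arrays. Without array 1 or array 2 of unstimulated Th1 cells at day 15 the 42 calls became 25 or 23. The 53 calls in restimulated Th1 cells became 31 without array 1 of day 15 and 35 without array 2 of day 5. The 19 in unstimulated Th17 cells became 11 without array 1 or 3 of day 5 and 12 without array 3 of day 15. The 33 in restimulated Th17 cells became 9 without array 3 of day 5 and 18 or 19 without array 2 of day 5 or arrays 1 or 2 of day 15.

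**Figure D2:**
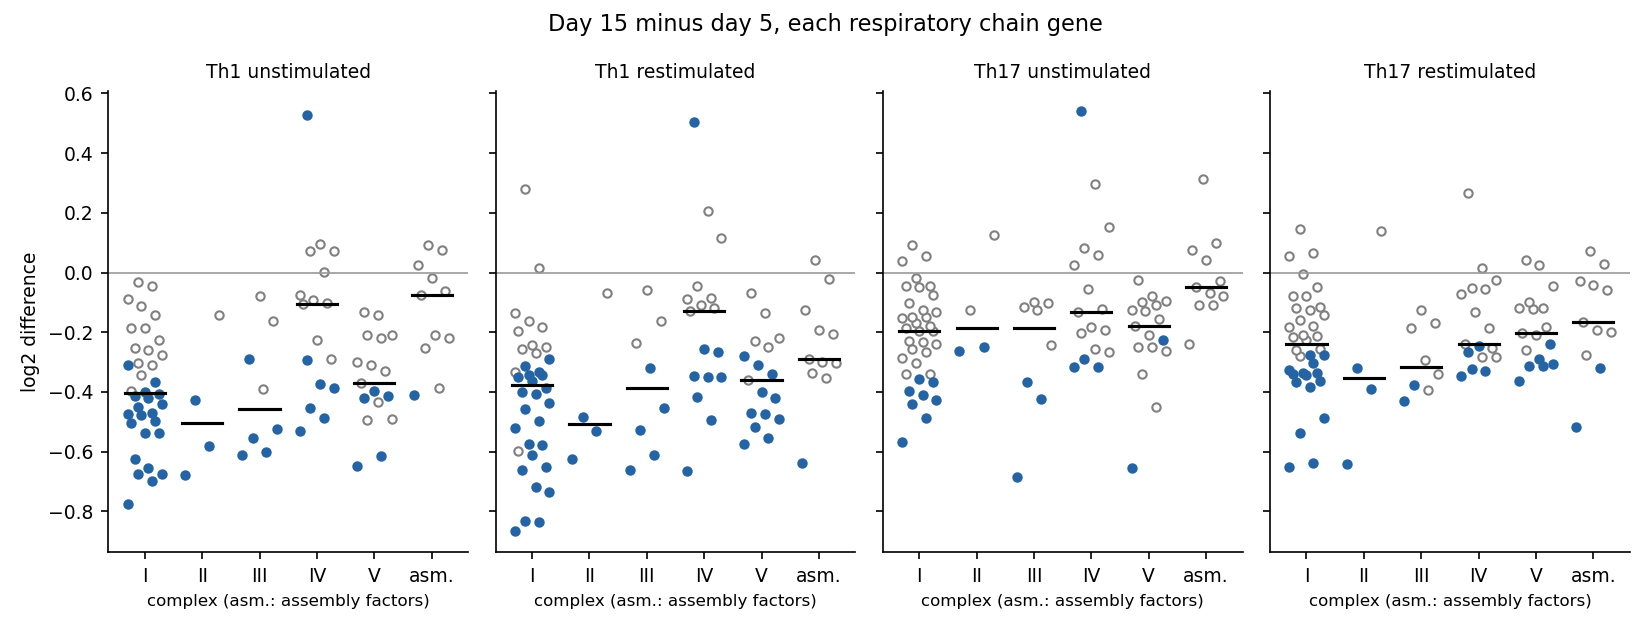
Log2 difference of day 15 minus day 5 (vertical axis) for each of the 93 genes, by complex (horizontal axis, asm. for assembly factors), with 1 panel for each cell type and condition. Filled blue points were called (limma adjusted p under 0.05), open grey points were not, and bars are medians. Complexes I, II and III have medians of -0.38 to -0.51 in the Th1 panels and assembly factors lie nearest to zero in unstimulated cells.

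Complex I, the entry point for electrons from NADH, had 21 and 24 of its 36 genes called lower in unstimulated and restimulated Th1 cells, and 8 and 15 in Th17 cells. Its median differences were -0.40, -0.38, -0.20 and -0.24. Ndufa4, first described as a complex I subunit and since found in complex IV, fell in all 4 comparisons. Its level was 9.82, 9.84 and 10.13 on the unstimulated Th1 arrays of day 5 and 9.16 and 9.15 at day 15. The restimulated ones read 9.36, 9.63 and 9.58 at day 5 and 8.73 and 8.58 at day 15. Both pairs of groups stand clear of each other, with differences of -0.78 ± 0.12 (SE, 1.71-fold lower, limma adjusted p = 6.07e-05) and -0.87 ± 0.12 (1.82-fold lower, adjusted p = 1.92e-05). In Th17 cells Ndufa4 went from 9.74, 9.37 and 9.35 to 9.10, 8.95, 9.03 and 9.24 without restimulation, a difference of -0.41 ± 0.10 (adjusted p = 0.0109). With restimulation it went from 9.47, 9.52 and 9.39 to 8.77, 8.77, 8.84 and 8.83, a difference of -0.65 ± 0.10 (adjusted p = 0.000166). No array of day 15 reached the lowest of day 5 in either.

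Ndufs8, an iron-sulfur subunit in the arm where electrons travel to ubiquinone, showed the same order. It read 11.79, 11.73 and 11.85 in unstimulated Th1 cells at day 5 and 11.16 and 11.07 at day 15. Restimulated, it read 11.55, 11.68 and 11.71 against 10.79 and 10.83. The differences were -0.67 ± 0.10 and -0.83 ± 0.10 (limma adjusted p = 2.79e-05 and 2.72e-06), and the groups did not overlap. In Th17 cells the levels were 11.59, 11.65 and 11.56 against 11.29, 11.20, 11.15 and 11.34 unstimulated, and 11.30, 11.57 and 11.60 against 10.92, 10.96, 11.02 and 11.12 restimulated. Those differences were -0.36 ± 0.08 and -0.49 ± 0.08 (adjusted p = 0.00682 and 0.000382), again without overlap. The 25 bases printed for Ndufs8 hold an ETS match, whereas the stretch of Ndufa4 holds neither motif, and both genes fell in all 4 comparisons.

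Among the accessory subunits of the membrane arm, Ndufb8 fell by 0.66, 0.66, 0.49 and 0.54 in unstimulated and restimulated Th1 and then Th17 cells, Ndufb9 by 0.45, 0.57, 0.44 and 0.64, and Ndufc1 by 0.50, 0.72, 0.43 and 0.34. Ndufa1 fell by 0.68, 0.41, 0.57 and 0.39. The catalytic core moved less evenly. Ndufv1, which binds NADH, fell by 0.47 and 0.39 in Th1 cells and differed by -0.15 and -0.22 in Th17 cells, where it was not called. Ndufs1, the largest subunit of the electron-input module, was called only in restimulated Th17 cells (-0.30, limma adjusted p = 0.024). Ndufs6, which sits beside that module, fell by 0.54 and 0.83 in Th1 cells and was not called in Th17 cells (-0.07 and -0.28). Its levels in restimulated Th1 cells were 9.33, 9.51 and 9.40 at day 5 and 8.50 and 8.66 at day 15.

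Complex II, succinate dehydrogenase, is also an enzyme of the tricarboxylic acid cycle, and its 4 genes did not move alike. Sdhd, a membrane anchor, read 10.78, 10.64 and 10.71 in unstimulated Th1 cells at day 5 and 10.15 and 9.91 at day 15. Restimulated, it read 10.40, 10.41 and 10.39 against 9.77 and 9.79. It fell by 0.68 ± 0.09 and 0.62 ± 0.09 (limma adjusted p = 1.56e-05 and 5.36e-05) with no overlap. In Th17 cells it read 10.34, 10.26 and 10.37 against 10.03, 10.21, 10.00 and 10.06 unstimulated, and 10.26, 10.38 and 10.42 against 9.66, 9.61, 9.78 and 9.80 restimulated. It fell there by 0.25 ± 0.08 (adjusted p = 0.0495) and 0.64 ± 0.08 (adjusted p = 1.31e-05).

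Sdhb, the iron-sulfur subunit of complex II, read 10.69, 10.71 and 10.73 in unstimulated Th1 cells at day 5 and 10.21 and 10.05 at day 15, and 10.41, 10.69 and 10.63 against 10.02 and 10.08 when restimulated. It fell by 0.58 ± 0.10 and 0.53 ± 0.10 (limma adjusted p = 0.000149 and 0.000436). In Th17 cells it read 10.52, 10.44 and 10.49 against 10.23, 10.26, 10.13 and 10.24, and 10.36, 10.57 and 10.48 against 10.07, 9.99, 10.03 and 10.23, and fell by 0.26 ± 0.08 and 0.39 ± 0.08 (adjusted p = 0.0423 and 0.0025). None of these groups overlapped. Sdhc, the other anchor, fell by 0.43 and 0.48 in Th1 cells and by 0.32 in restimulated Th17 cells, where the groups overlapped.

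Sdha, the flavoprotein that oxidises succinate, stood apart from its partners. It read 11.41, 11.36 and 11.36 in unstimulated Th1 cells at day 5 and 11.28 and 11.20 at day 15, and 11.29, 11.13 and 11.26 in Th17 cells at day 5 and 11.35, 11.41, 11.33 and 11.33 at day 15. Its differences between days were -0.14 ± 0.09, -0.07 ± 0.09, 0.13 ± 0.08 and 0.14 ± 0.08, and limma called none (adjusted p = 0.28 to 0.764). Its differences with restimulation are given below.

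Complex III had 5 of its 8 genes called lower in each Th1 comparison, 3 in unstimulated and 2 in restimulated Th17 cells. Uqcrc1, a core structural subunit, read 11.76, 11.79 and 11.78 in unstimulated Th1 cells at day 5 and 11.19 and 11.16 at day 15. It fell there by 0.60 ± 0.12 (limma adjusted p = 0.000783). Restimulated Th1 arrays read 11.43, 11.51 and 11.53 against 11.02 and 10.91, a fall by 0.53 ± 0.12 (adjusted p = 0.00278). Restimulated Th17 arrays read 11.20, 11.39 and 11.58 against 10.88, 10.91, 10.98 and 11.05, a fall by 0.43 ± 0.10 (adjusted p = 0.00488). In these comparisons no array of day 15 reached day 5. Unstimulated Th17 arrays read 11.70, 11.43 and 11.70 against 11.60, 11.31, 11.17 and 11.39, overlapped, and were not called (-0.24 ± 0.10, adjusted p = 0.12). Uqcrfs1, the Rieske iron-sulfur protein, was called lower in unstimulated Th1 cells (-0.55) and in both Th17 comparisons (-0.37 and -0.38), and differed by -0.16 in restimulated Th1 cells. Uqcr10, a small subunit, had its widest difference in unstimulated Th17 cells, where it fell by 0.69 ± 0.13 (adjusted p = 0.00173).

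Complex IV, cytochrome c oxidase, has subunits made in most tissues and alternatives made mainly in muscle, testis or lung. The 10 general ones (Cox4i1, Cox5a, Cox5b, Cox6a1, Cox6b1, Cox6c, Cox7a2, Cox7a2l, Cox7b and Cox8a) had 6, 8, 3 and 5 genes called lower and medians of -0.33, -0.35, -0.20 and -0.26. The 7 tissue forms (Cox4i2, Cox6a2, Cox6b2, Cox7a1, Cox7b2, Cox8b and Cox8c) had 0 called lower in any comparison of days and medians of 0.07, -0.09, 0.08 and -0.05. All but 2 of these, Cox6a2 and Cox8c, lay below the median gene level of 7.18. Cox5a, a core-associated subunit, read 10.81, 10.77 and 10.86 in unstimulated Th1 cells at day 5 and 10.27 and 10.39 at day 15, and 10.59, 10.84 and 10.65 against 9.89 and 10.16 when restimulated. It fell by 0.49 ± 0.11 and 0.66 ± 0.11 (limma adjusted p = 0.00408 and 0.000228), and by 0.32 in unstimulated Th17 cells (adjusted p = 0.0378), while restimulated Th17 cells missed the call (-0.28, adjusted p = 0.052). The Cox5a call in unstimulated Th17 cells was lost in 8 of 15 alternatives (limma adjusted p = 0.00378 to 0.641), cyclic loess and the replicate block among them. Cox5b fell in all 4, by 0.53, 0.49, 0.29 and 0.32. Cox4i1 fell by 0.29 and 0.42 in Th1 cells and by 0.33 in restimulated Th17 cells, Cox6a1 by 0.45, 0.35 and 0.27 in the same 3 comparisons, and Cox7a2l was called in none.

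Cox6b2, the testis form of a complex IV subunit, was the member called higher at day 15. It read 6.54, 6.46 and 6.38 in unstimulated Th1 cells at day 5 and 6.99 and 6.98 at day 15. It read 6.38, 6.70 and 6.42 against 6.81 and 7.20 in restimulated Th1 cells, and 6.44, 6.34 and 6.48 against 7.13, 6.80, 6.95 and 6.96 in unstimulated Th17 cells. In these comparisons it rose by 0.53 ± 0.13, 0.51 ± 0.13 and 0.54 ± 0.11 (limma adjusted p = 0.00611, 0.00889 and 0.00238) without overlap. Restimulated Th17 cells read 6.22, 6.58 and 6.41 against 6.56, 6.58, 6.67 and 6.87 and missed the call (0.27 ± 0.11, adjusted p = 0.118). All but 1 of these levels (7.20) lie below that of the median gene, and on the day 0 arrays the unstimulated values were 7.14 in Th1 and 6.96 in Th17 cells.

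Complex V had 5 and 11 of 17 genes called lower in Th1 cells and 2 and 6 in Th17 cells, with medians of -0.37, -0.36, -0.18 and -0.20. Atp5g3, a gene for the membrane ring that turns with the proton flow, was called in all 4. Its levels were 12.08, 11.97 and 11.98 in unstimulated Th1 cells at day 5 and 11.46 and 11.34 at day 15, and 11.78, 11.78 and 11.77 against 11.24 and 11.17 when restimulated. It fell by 0.61 ± 0.08 and 0.57 ± 0.08 (limma adjusted p = 9.88e-06 and 2.74e-05). In Th17 cells it read 11.85, 11.73 and 11.86 against 11.59, 11.60, 11.62 and 11.55, and 11.57, 11.72 and 11.75 against 11.30, 11.26, 11.37 and 11.33, and fell by 0.23 ± 0.07 and 0.36 ± 0.07 (adjusted p = 0.0406 and 0.00106). No day 15 array of Atp5g3 reached its day 5 arrays of the same type and condition.

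Atp5a1, the alpha subunit of the ATP synthase head, read 12.01, 11.97 and 12.04 in unstimulated Th1 cells at day 5 and 11.58 and 11.60 at day 15, a fall by 0.41 ± 0.08 (limma adjusted p = 0.000916). It also fell in restimulated Th1 cells, by 0.49 ± 0.08 (adjusted p = 0.000171), and in restimulated Th17 cells, by 0.31 ± 0.07 (adjusted p = 0.00368). Unstimulated Th17 cells read 11.84, 11.67 and 11.81 at day 5 and 11.75, 11.75, 11.76 and 11.73 at day 15. The day 15 values lay inside the range of day 5 (-0.03 ± 0.07, adjusted p = 0.844). Atp5b, the catalytic beta subunit, was called only in restimulated Th1 cells (-0.28), as was Atp5g1 (-0.48), another gene for the membrane ring. Atp5l, a membrane subunit, fell in unstimulated Th17 cells by 0.65 ± 0.14 (adjusted p = 0.00424), where its 4 arrays of day 15 ran unevenly at 9.26, 8.96, 8.57 and 9.48.

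**Figure D3:**
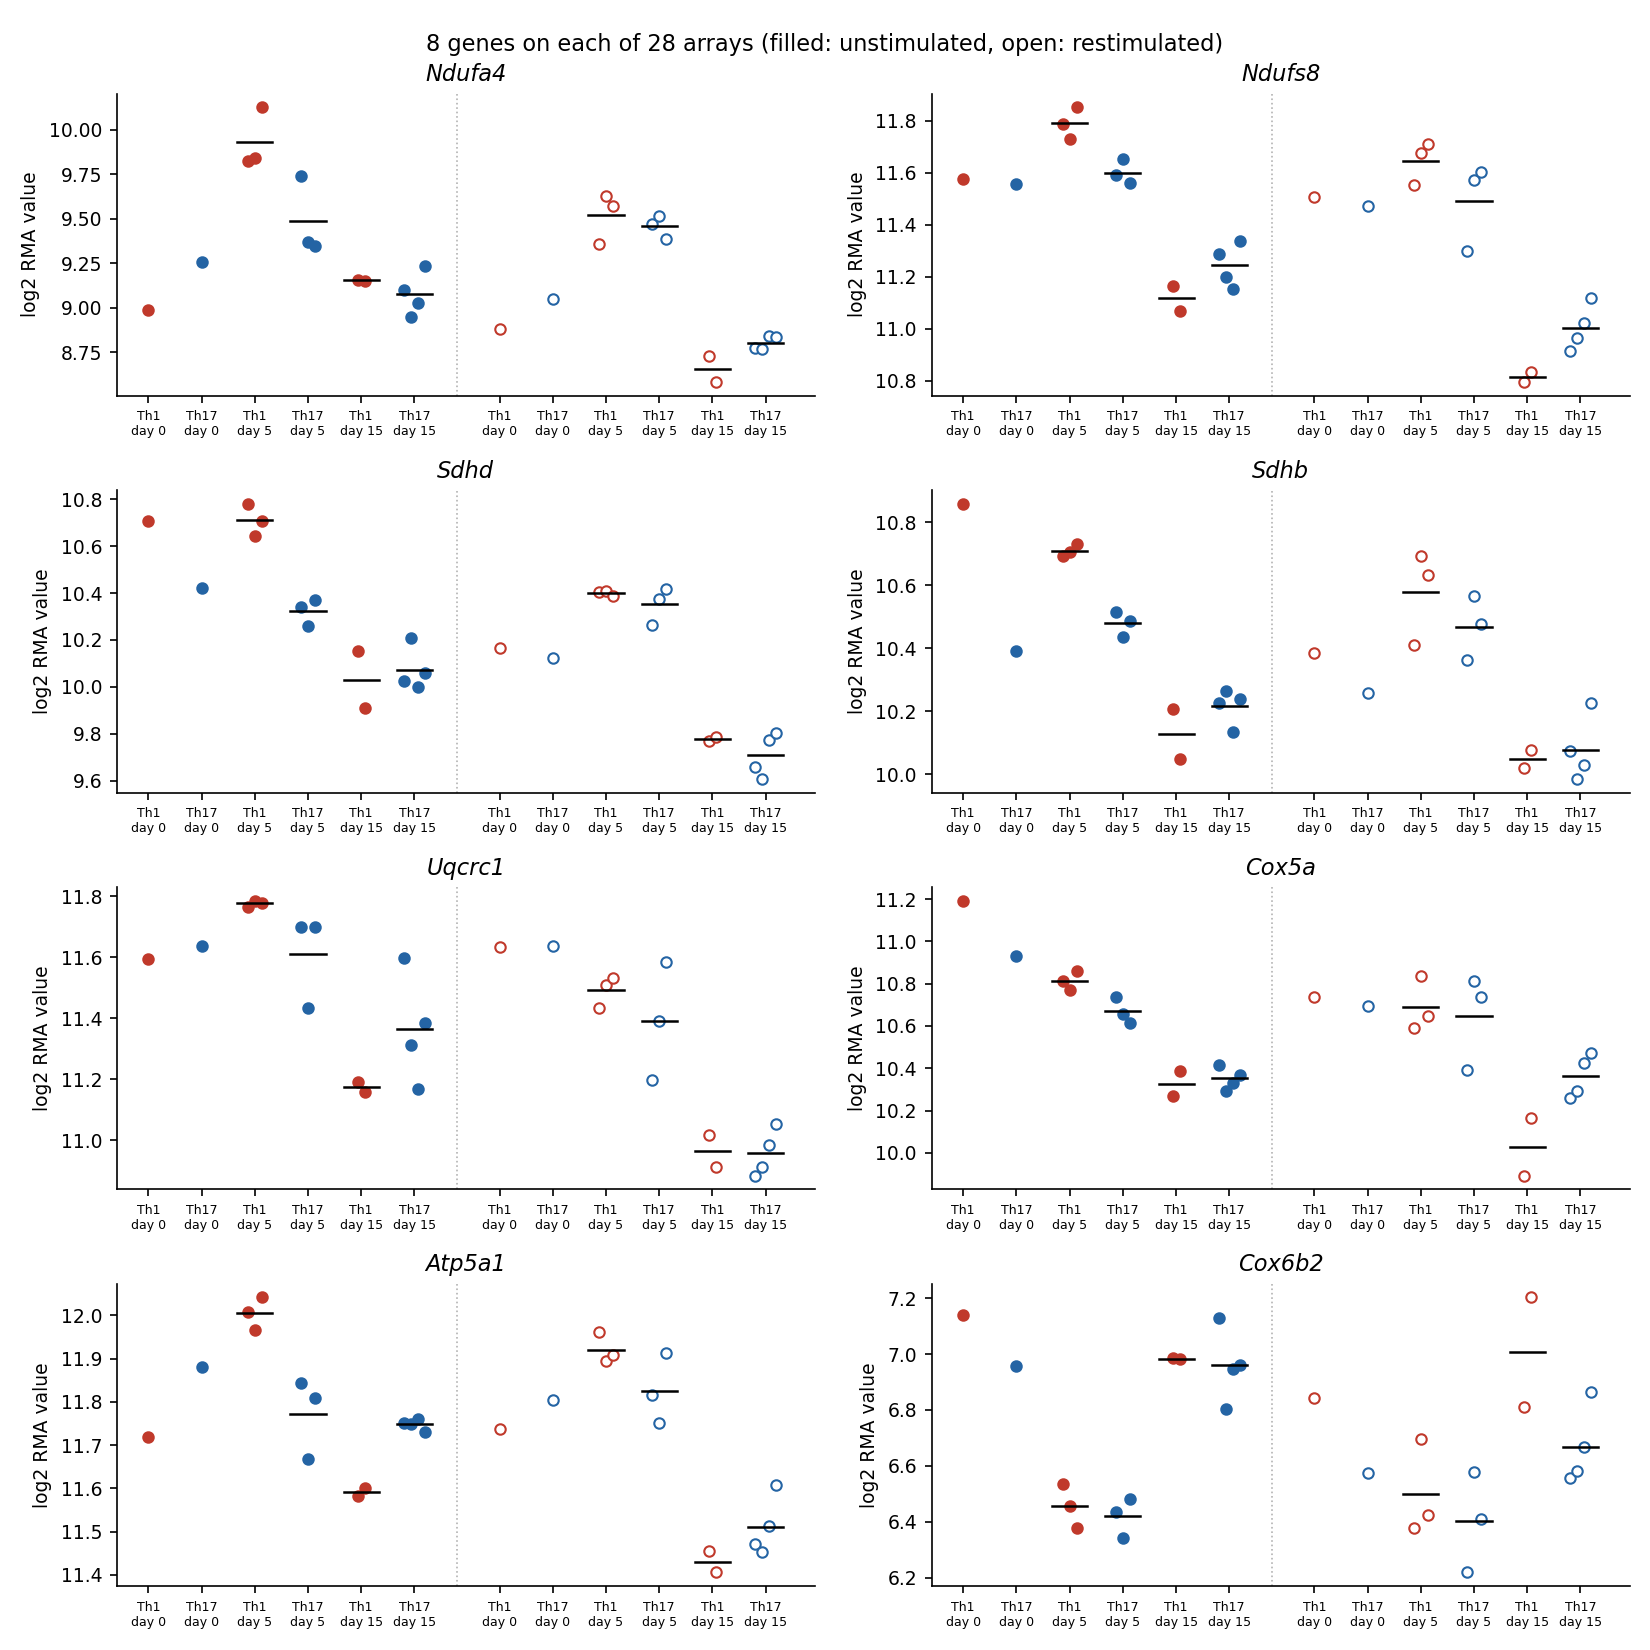
Log2 level (vertical axis) of Ndufa4, Ndufs8, Sdhd, Sdhb, Uqcrc1, Cox5a, Atp5a1 and Cox6b2, 1 panel each, on the 28 arrays, by cell type and day (horizontal axis), filled where unstimulated and open where restimulated. Red is Th1, blue is Th17 and bars are group means, and of the 8 genes Cox6b2 is the one whose day 15 means lie above its day 5 means, with day 15 arrays at 6.56 to 7.20.

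The assembly factors, which build the complexes but are not part of them, gave the fewest calls for their number. Of 11, 1 was called lower in each Th1 comparison, 0 in unstimulated and 2 in restimulated Th17 cells. These are 9.09%, 9.09%, 0% and 18.2% of them, against 8.72%, 8.64%, 5.28% and 8.42% of all genes. Apart from the 2, these counts are near or below the background, so they mark no fall of the assembly factors as a set. Ndufaf2 was the one in unstimulated Th1 cells, with levels of 7.59, 7.35 and 7.50 at day 5 and 7.11 and 7.03 at day 15 (-0.41 ± 0.09, limma adjusted p = 0.00183). Ndufaf4 was the one in restimulated Th1 cells, with 7.41, 7.46 and 7.72 against 7.15 and 6.63 (-0.64 ± 0.15, adjusted p = 0.0046), and it differed by -0.06 or less in size in the other 3. Ndufaf1 and Sdhaf1 were the ones in restimulated Th17 cells, at -0.32 and -0.52.

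The erythroid markers rose over the same days in which the respiratory chain genes fell. On single arrays their mean was 9.33 and 9.64 in unstimulated and 8.74 and 9.13 in restimulated Th1 cells at day 15. It was 8.68 to 9.55 in unstimulated and 7.87 to 8.18 in restimulated Th17 cells at day 15, against 6.29 to 6.68 at day 5. The median member differences were -0.33 and -0.34 in unstimulated and restimulated Th1 cells and -0.16 and -0.22 in Th17 cells. The part of the erythroid cells in them was not tested. With the erythroid mean as a covariate the median differences of the 93 genes were -0.86, -0.79, -0.58 and -0.49, and 17, 21, 14 and 21 were called lower. The marker mean lay higher on every array of day 15 than on any of day 5, so marker and day cannot be told apart. With the myeloid mean as a covariate 40, 48, 15 and 34 genes were called lower. For the erythroid and myeloid covariates no share of all genes called is given beside the counts.

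**Figure D4:**
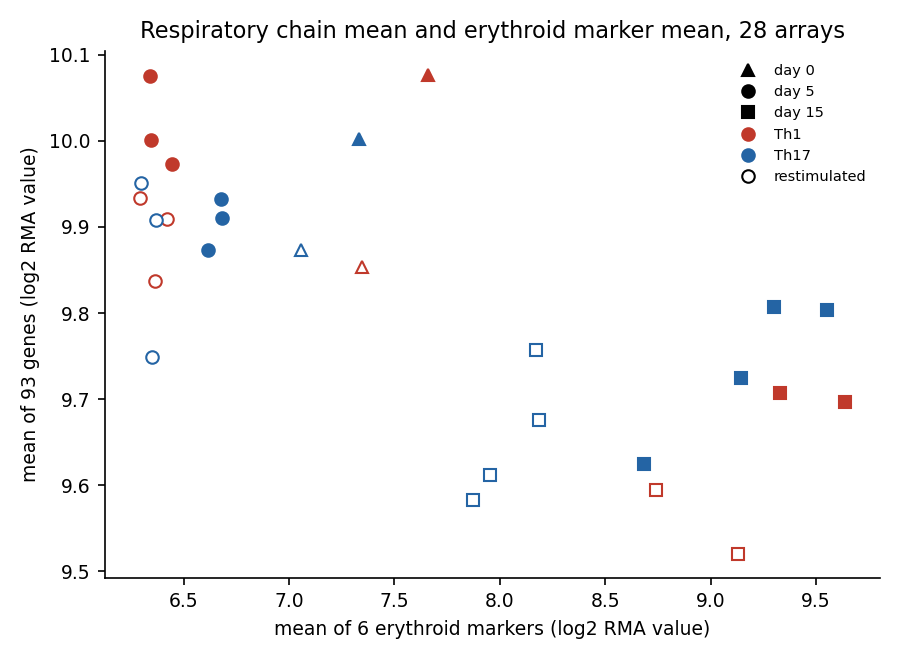
Mean log2 level of the 93 genes (vertical axis) against the mean of 6 erythroid markers (horizontal axis) on each array. Red is Th1 and blue is Th17, triangles are day 0, circles day 5 and squares day 15, and open symbols are restimulated. The day 5 arrays have erythroid means of 6.29 to 6.68 and the day 15 arrays of 7.87 to 9.64, with a gap between them.

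The fall can also be read beside the NRF-1 and ETS letters. The 36 genes with a match had median differences between days of -0.37, -0.35, -0.14 and -0.21, and the 41 without one had -0.33, -0.35, -0.23 and -0.22. Tfam, which packages and transcribes mitochondrial DNA, fell by 0.76 in restimulated Th1 cells (limma adjusted p = 0.0032), by 0.57 in unstimulated Th17 cells (adjusted p = 0.0131) and by 0.59 in restimulated Th17 cells (adjusted p = 0.00844). It missed the call in unstimulated Th1 cells (-0.44, adjusted p = 0.0991). The gene for NRF-1 itself, Nrf1, was called in none, and Gabpa, the DNA-binding subunit of GABP, was called in restimulated Th17 cells alone, where it fell by 0.32. Ppargc1b, a co-activator of respiratory genes, rose by 0.43 there, and Myc, which drives growth and ribosome production, fell by 0.88. Of the 16 regulators measured, 0, 2, 1 and 3 were called lower and 0, 0, 0 and 1 higher. Among all genes 8.72%, 8.64%, 5.28% and 8.42% were called lower and 7.33%, 7.07%, 4.37% and 5.05% higher. Apart from the 3, these small counts are near or below those shares.

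Other mitochondrial genes were set beside the chain, and their counts are to be read against the 8.72%, 8.64%, 5.28% and 8.42% of all genes called lower in these comparisons. Of 77 mitochondrial ribosomal protein genes, 47 and 45 were called lower in unstimulated and restimulated Th1 cells and 14 and 34 in Th17 cells, with 0 higher and medians of -0.39, -0.45, -0.17 and -0.28. These genes build the ribosome that translates the mitochondrially encoded subunits. Examples were Mrpl27 (-0.89, unstimulated Th1), Mrps28 (-0.87, restimulated Th1), Mrps36 (-0.72, unstimulated Th17) and Mrps30 (-0.75, restimulated Th17). Of 16 tricarboxylic acid cycle genes 6, 7, 0 and 6 were called lower. Fh1, fumarate hydratase, fell by 0.74 and 0.91 in Th1 cells and by 0.33 in restimulated Th17 cells, and Mdh2, malate dehydrogenase, by 0.44, 0.53 and 0.31.

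Of 14 fatty acid oxidation genes 5, 5, 3 and 7 were called lower. Acadl, an acyl-CoA dehydrogenase, fell in all 4 by 0.62, 0.52, 0.68 and 0.60. Cpt1a, which admits fatty acids to the mitochondrion, fell in Th17 cells by 0.80 and 0.61, as did its partner carrier Slc25a20, by 0.74 and 0.86. Of 16 import and chaperone genes 6, 9, 1 and 5 were called lower, with Timm8a1 falling by 0.61 and 0.99 in Th1 cells and by 0.59 in restimulated Th17 cells. Of 24 electron carriers and further assembly factors 7, 7, 5 and 9 were called lower and 1 higher (Ttc19, restimulated Th1). Cyc1, the cytochrome subunit of complex III, whose symbol lies outside the rule, fell by 0.38, 0.49 and 0.32 in unstimulated Th1, restimulated Th1 and restimulated Th17 cells, and Cycs, cytochrome c, was called in none. Of 11 genes of uncoupling and oxidant defence 2, 2, 0 and 3 were called lower and 1, 1, 2 and 0 higher.

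After 2 h of restimulation the mean of the 93 genes differed by -0.12 in Th1 cells at day 5 and by -0.15 in Th1 cells at day 15 (-8.18% and -9.58% in signal), in neither case with overlap between the array means. In Th17 cells the differences were -0.04 at day 5 and -0.08 at day 15, and the groups overlapped. Few single genes were called: 7 lower and 0 higher in Th1 cells at day 5, against 13% of all genes called, 8.96% lower and 4.07% higher. At day 15 in Th1 cells 7 were lower and 0 higher (7.29% of all genes called, 4.63% lower and 2.65% higher). In Th17 cells 1 was lower and 0 higher at day 5 (8.07% called, 4.08% lower and 3.99% higher), and 21 were lower and 2 higher at day 15 (17.5% called, 11.1% lower and 6.49% higher). The shares of the 93 called lower were near the background for all but the last of these. The median member differences were -0.128, -0.151, -0.040 and -0.068 in the same order, against -0.008, -0.021, 0.028 and -0.084 for all genes. Below zero were 76, 76, 59 and 67 of the 93, and 52.0%, 54.5%, 43.4% and 67.7% of all genes. In Th17 cells at day 15 the members as a set thus did not lie lower than all genes. Another scaling changed the split: with cyclic loess the counts were 3 higher and 3 lower in Th1 cells at day 15, 1 and 3 in Th17 cells at day 5 and 8 and 16 in Th17 cells at day 15, and with median centring 4 and 13 in the last.

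**Figure D5:**
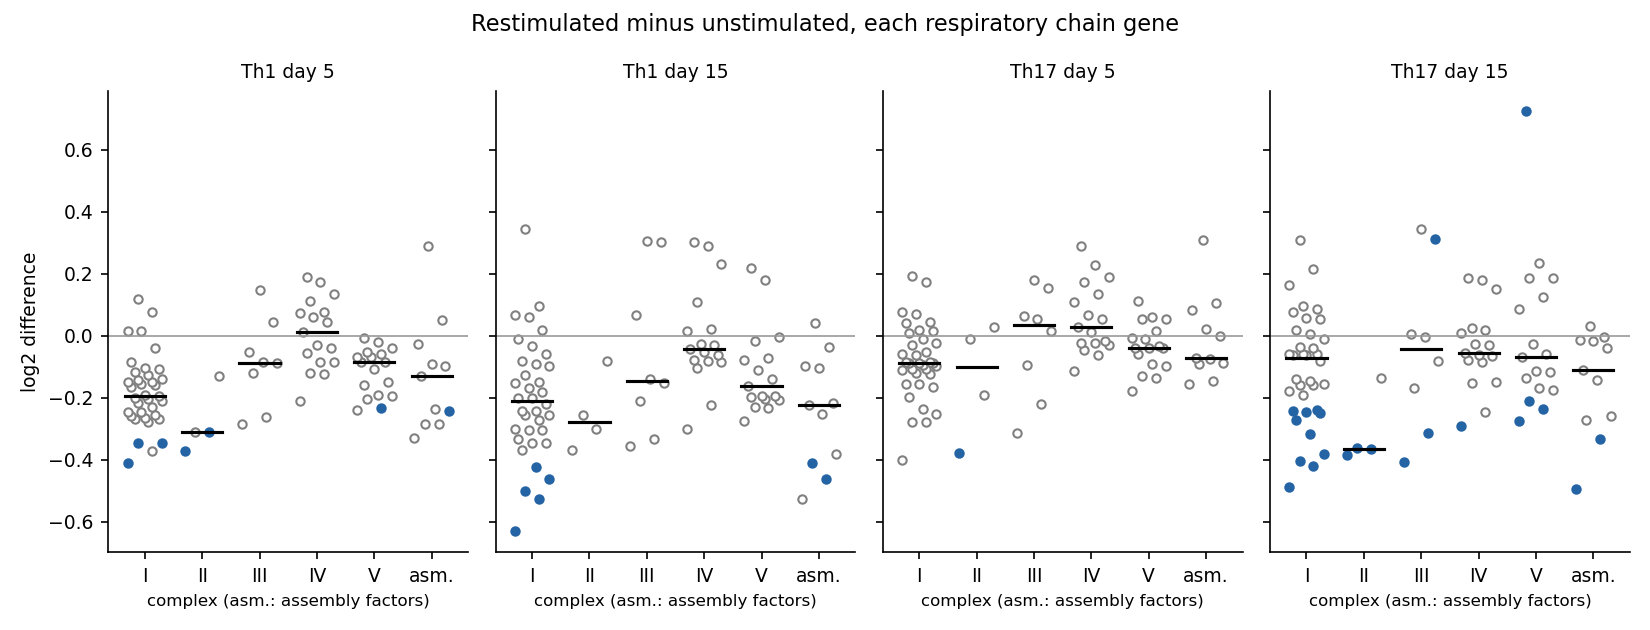
Log2 difference of restimulated minus unstimulated (vertical axis) for each of the 93 genes, by complex (horizontal axis, asm. for assembly factors), with 1 panel for each cell type and day. Filled points were called (limma adjusted p under 0.05), open grey points were not, and bars are medians. The panel of Th17 cells at day 15 holds 21 genes called lower and 2 called higher, and the panel of Th17 cells at day 5 holds 1.

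Sdha, for which no day difference was called, was called lower with restimulation in 3 of the 4 comparisons. It read 11.41, 11.36 and 11.36 in unstimulated and 11.04, 11.01 and 10.97 in restimulated Th1 cells at day 5, a fall by 0.37 ± 0.08 (limma adjusted p = 0.00478). In Th17 cells at day 5 it went from 11.29, 11.13 and 11.26 to 10.84, 10.82 and 10.89 (-0.38 ± 0.08, adjusted p = 0.00707) and at day 15 from 11.35, 11.41, 11.33 and 11.33 to 10.79, 10.96, 11.05 and 11.14 (-0.36 ± 0.07, adjusted p = 0.00114). The parts did not overlap in any of these. In Th1 cells at day 15 the values were 11.28 and 11.20 against 10.85 and 11.03, which missed the call (-0.30 ± 0.10, adjusted p = 0.0834).

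Ndufs7, the subunit that carries the last iron-sulfur cluster of complex I, fell in 3 of the 4 comparisons. It went from 12.08, 12.01 and 12.05 to 11.65, 11.76 and 11.70 in Th1 cells at day 5 (-0.34 ± 0.09, limma adjusted p = 0.00874). It went from 11.98 and 12.02 to 11.27 and 11.48 in Th1 cells at day 15 (-0.63 ± 0.10, adjusted p = 0.000913). In Th17 cells at day 15 it went from 12.08, 12.01, 12.05 and 12.02 to 11.40, 11.50, 11.60 and 11.71 (-0.49 ± 0.07, adjusted p = 5.65e-05). The unstimulated arrays of Ndufs7 thus differed little between days, and its day difference was called in restimulated Th1 cells alone (-0.33 ± 0.10, adjusted p = 0.0176). Ndufa4 fell with restimulation in the same 3 comparisons, by 0.41, 0.50 and 0.27. For Ndufa4 the Th17 call at day 15 was lost in 13 of 16 alternatives (-0.32 to -0.09, limma adjusted p = 0.0284 to 0.79), the Th1 call at day 15 in 6 of 12 (adjusted p = 0.0125 to 0.25) and that at day 5 in 3 of 14. Over the 93 genes, 3 were called lower in 3 restimulation comparisons, 6 in 2, 15 in 1 and 69 in none, and no like count over all genes was made.

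In Th17 cells at day 15 the 21 genes called lower comprised 10 of complex I, 3 each of complexes II and V, 2 of complex III, 1 of complex IV and 2 assembly factors. The assembly factor Ndufaf1 had the widest fall, from 8.68, 8.54, 8.63 and 8.69 to 8.13, 8.16, 8.13 and 8.14 (-0.50 ± 0.09, limma adjusted p = 0.000289). Ndufa9 fell by 0.42, Uqcrc1 by 0.41, Ndufs6 by 0.40 and Sdhd by 0.36. Against them, Atp5l rose from 9.26, 8.96, 8.57 and 9.48 to 9.71, 9.77, 9.82 and 9.85 (0.72 ± 0.13, adjusted p = 0.000453), and Uqcrq, a small subunit of complex III, rose by 0.31 ± 0.09 (adjusted p = 0.0222). Atp5l has 6 probe sets, whose differences ran from 0.64 to 0.85. Erythroid markers also moved here: all 6 were called lower with restimulation in Th17 cells at day 15, 3 of 6 in Th1 cells at day 15, 1 in Th17 cells at day 5 and 0 in Th1 cells at day 5. Their part in these differences was not tested. With the erythroid mean as a covariate 6 of the 93 genes were called with restimulation in Th17 cells at day 15. No share of all genes is given beside this count.

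Single arrays moved these restimulation counts. The 7 genes called in Th1 cells at day 5 became 3 or 2 without array 1 or 3 of the unstimulated group and 2 or 4 without array 1 or 3 of the restimulated group. The 7 in Th1 cells at day 15 became 1 or 2 without either unstimulated array. The 23 in Th17 cells at day 15 became 15 without unstimulated array 1 or 4 and 12 or 13 without restimulated array 1 or 2, and the 1 in Th17 cells at day 5 became 2 without restimulated array 2.

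Among the pathway genes, tricarboxylic acid cycle genes were called lower with restimulation in 3, 3, 1 and 8 of 16 (Th1 at day 5 and day 15, then Th17 at day 5 and day 15), and 0 were called higher. All genes were called lower in 8.96%, 4.63%, 4.08% and 11.1% of cases in these comparisons, and counts such as 1 of 16 or 2 of 77 are near or below that. Fatty acid oxidation genes were called lower in 4, 2, 1 and 5 of 14, again with 0 higher. Of the mitochondrial ribosomal protein genes 7, 6, 2 and 21 were lower and 0, 1, 3 and 2 higher. Of 16 import and chaperone genes 2 were called higher in Th1 and 1 in Th17 cells at day 5 and 0 lower, against 4.07% and 3.99% of all genes called higher, so the Th17 count is near the background. At day 15, 0 were higher and 0 lower in Th1 cells, and 2 and 2 in Th17 cells (2.65% and 6.49% of all genes higher). Electron carriers and further assembly factors were lower in 7, 4, 3 and 8 of 24 and higher in 1, 1, 1 and 1. Of 11 genes of uncoupling and oxidant defence 0, 2, 0 and 4 were lower and 0, 0, 1 and 0 higher. Of 16 regulators 1, 2, 0 and 2 were lower and 2, 1, 2 and 1 higher. Myc rose by 1.27 in Th1 cells and by 1.06 in Th17 cells at day 5 (limma adjusted p = 0.00352 and 0.0196).

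Th1 and Th17 cells differed in few respiratory chain genes at a given day. At day 5 without restimulation 3 genes were called lower in Th17 cells and 0 higher (3.63% of all genes were called, 1.32% lower and 2.31% higher). The 93-gene mean differed by -7.41% in signal, with no overlap. Ndufa4 was 1.36-fold lower in Th17 cells (-0.44 ± 0.11, limma adjusted p = 0.0183), Sdhd 1.31-fold (-0.39 ± 0.08, adjusted p = 0.00741) and Ndufaf2 1.27-fold (-0.35 ± 0.08, adjusted p = 0.0102). The 3 Th1 arrays of Ndufa4 read 9.82 to 10.13 and the 3 Th17 arrays 9.35 to 9.74. Those of Sdhd read 10.64 to 10.78 and 10.26 to 10.37. Those of Ndufaf2 read 7.59, 7.35 and 7.50 and 7.13, 7.04 and 7.22. No Th17 array of these genes reached the Th1 arrays. Myeloid markers differed between the same groups, with a mean of 6.65 in Th1 and 7.90 in Th17 cells. With their mean as a covariate the calls of Sdhd (adjusted p = 0.144) and Ndufaf2 (adjusted p = 0.254) were lost and that of Ndufa4 was not (adjusted p = 0.0278). Ndufa4 was not the firmer call over all alternatives. Its call was lost in 4 of 14 (limma adjusted p = 0.00267 to 0.168), with only the compared groups among them. That of Sdhd was lost in 2 of 14 (adjusted p = 0.00315 to 0.144). Without Th1 array 1 or 3 only 1 gene was called (2.23% or 2.24% of all genes). At day 5 with restimulation limma called 0 of the 93 genes (3.98% of all, 1.02% lower and 2.95% higher), and 3 had an unadjusted p under 0.05.

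At day 15 the mean of the 93 genes was higher in Th17 cells by 0.04 without and 0.10 with restimulation. The arrays of the cell types overlapped in both conditions. Without restimulation limma called 0 of the 93 genes (4.15% of all genes, 2.28% lower and 1.88% higher) and 2 had an unadjusted p under 0.05, with a median difference of 0.04. With restimulation the median was 0.11, and Ndufv3, a small subunit of the electron-input module, was called higher in Th17 cells (6.43% of all genes were called, 2.98% lower and 3.45% higher). It read 8.96 and 9.33 in Th1 and 9.46, 9.60, 9.51 and 9.65 in Th17 cells (0.41 ± 0.11, adjusted p = 0.0197), and 19 genes had an unadjusted p under 0.05. Without Th1 array 2 there were 4 calls, without Th17 array 1 there were 3, and without Th17 array 2 or 4 there were 0.

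The difference between the cell types in the fall was itself tested. In none of the 6 tests of an interaction did limma call a member. For type by day, 1.14% of all genes were called in unstimulated cells (0.562% lower, 0.577% higher) and 0.943% in restimulated cells (0.512% lower, 0.431% higher), and 16 and 11 of the 93 genes had an unadjusted p under 0.05. The smallest adjusted p were 0.0796 (Atp5g3) and 0.105 (Ndufs6). The median interactions were 0.14 and 0.13, against 0.05 and -0.04 for all genes, so the smaller differences in Th17 cells were not established for any single gene. For type by restimulation 0.0201% of all genes were called at day 5 and 0% at day 15, with 3 and 5 members at an unadjusted p under 0.05. For day by restimulation 0.0251% were called in Th1 cells (0.0201% lower, 0.00502% higher) and 1.17% in Th17 cells (0.732% lower, 0.441% higher), with 5 and 7 members so. In simulated data with known changes of 0.5 on the log2 scale, these interaction tests recovered 9 to 28.4% of the genes changed by that amount and the pairwise tests 32.8 to 73.1%, among 19938 genes.

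The day 0 cultures have 1 array each and give values without a test. The mean of the 93 genes was 10.08 in Th1 and 10.00 in Th17 cells without restimulation and 9.85 and 9.87 with it. The unstimulated cultured cells thus lay at or above the day 5 arrays, whose group means were 10.02 and 9.91. From day 0 to day 5 the median member difference was -0.08 in Th1 and -0.07 in Th17 cells without restimulation, against 0.06 and 0.02 for all genes. With restimulation it was 0.06 and 0.03, against -0.03 and 0.11 for all genes, and 39 of the 93 were below zero in each type. Ndufa4 went against the unstimulated median in Th1 cells, from 8.99 at day 0 to 9.82, 9.84 and 10.13 at day 5, before its fall by day 15. Cox6a2, the muscle form of a complex IV subunit, was also higher at day 5, by 0.69 in Th1 and 0.49 in Th17 cells. Among members above the median gene level, the largest differences the other way were -0.61 for Ndufa1 in Th1 cells and -0.73 for the assembly factor Sdhaf3 in Th17 cells. Of the dimmer members Cox6b2 differed by -0.68 in Th1 cells and Cox7a1 by -1.18 in Th17 cells.

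With restimulation of the day 0 cultures, 71 of the 93 genes were lower in Th1 cells (median -0.28, against 0.08 for all genes) and 70 in Th17 cells (median -0.13, against -0.05). Ndufaf4, an assembly factor of complex I, was the clearest exception. It read 7.56 without and 8.89 with restimulation in Th1 cells, and 7.73 and 8.47 in Th17 cells, whereas after transfer its group means lay between 6.89 and 7.53 in every condition. Cox7a1, the muscle form of a complex IV subunit, read 8.02 and 8.18 in cultured Th17 cells and 6.73 in both cultured Th1 parts, and after transfer its group means were 6.53 to 6.88. The day 0 Th17 arrays also carry the highest myeloid marker means, 9.55 and 9.13, and whether this bears on Cox7a1 was not tested.

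At the ends of the range, Atp5d, Atp5b and Cox6c had the highest levels of the 93 genes and varied little, with group means that differed by at most 0.33, 0.35 and 0.35. The lowest levels were those of Cox7b2, Ndufa4l2 and Cox8b. The widest ranges of group means over the 12 groups belonged to Ndufaf4 (1.99), Cox7a1 (1.65), Ndufs6 (1.42), Ndufc1 (1.39) and Ndufa1 (1.29).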

How the data were processed

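The log2 values were deposited by the authors after RMA in Affymetrix Expression Console, per the submitters' processing notes. Their versions are not given there. RMA removes background, gives the arrays of a run 1 distribution and summarises probes, so a shift of most genes within a run would be lost. It is not known which of the 28 arrays shared a run. Their medians ran from 6.77 to 7.09, so the deposited values do not have 1 common distribution. Of 35556 probe sets, 21789 with 1 symbol in the platform annotation were used (1621 had several and 12146 none), giving 19938 genes; 6 probe sets of the chosen families carried several symbols and were left out, among them all those of Cox7c and Ndufb4. The gene table held 21698 of the identifiers and updated 0 symbols.

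limma 3.58.1 in R 4.3.3 (lmFit, eBayes) was fitted to the 24 arrays after transfer in 8 groups without filter or covariate (16 residual degrees of freedom), with Benjamini-Hochberg adjustment over all genes, for 12 pairwise contrasts and 6 interactions; day 0 gave values only. Folds are powers of 2 of the log2 differences. The procedure was tested on simulated data with 200 changed genes, and called 3 to 15 unchanged ones. Members and gene lists were chosen with earlier results of these data known, so a list's direction is not independent evidence. Named genes are a panel of known subunits, up to 6 called members each way per contrast with the largest change, the 3 highest and lowest, the 5 with the widest range, and up to 3 called genes per pathway list; complete lists of calls were named beyond this after their values were seen. Same-numbered arrays deviated together in every pair (all correlations over 0.1) for restimulation at day 5 (0.158 to 0.215 in Th1, 0.384 to 0.474 in Th17) and for Th17 against Th1 at day 5 restimulated (0.217 to 0.483), where the number was taken to pair the samples. For restimulation in Th1 cells at day 15 the value was 0.13. With 2 arrays in each group both pairs must give the same value, so it counts once. Day 15 against day 5 in Th1 cells gave 0.285 and 0.206 unstimulated and 0.382 and 0.644 restimulated. Th17 against Th1 at day 5 unstimulated gave -0.13 to 0.074. These are the other parts of the divided samples, so the pairing of types taken for the restimulated parts was not seen there. The labels do not settle which numbers pair samples, so the pairing is uncertain. Promoters and the gene table are from RefSeq; 16 members are not in the promoter table. Alternatives were cyclic loess, median centring, a level filter, the mean of all probe sets, only the compared groups, a replicate block, erythroid or myeloid covariates and leaving out each array. Precision is limited by 2 to 4 arrays a group.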

Additional observations from a re-analysis of the deposited data

Results flagged for a closer look

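In groups of 4 arrays the highest or lowest array was compared with its neighbours, and 2 of 102 groups of values stood out, where chance gives about 1 in 20. The complex IV mean of unstimulated Th17 cells at day 15 was 9.314 on array 4 and 9.29 to 9.293 on the others, so its gap to the nearest was 0.876 of the whole range, beyond the critical value of Dixon's test, although the range itself is small. Cox7a1 in the same group was 6.764 on array 3 and 6.501 to 6.526 on the others, a gap of 0.904 of the range.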

How the results depend on the processing

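The direction of the day difference in the mean of the 93 genes was kept under cyclic loess, median centring, the level filter, the mean of all probe sets and without each array. It was -0.253 and -0.280 in unstimulated and restimulated Th1 cells with loess, -0.368 and -0.398 with centring, and -0.245 in unstimulated Th17 cells with centring. The restimulation difference of that mean was -0.056 (day 5) and -0.083 (day 15) in Th1 cells with loess, and -0.182 to -0.108 at day 15 without single arrays.

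Counts of members called between days became 18, 22 and 21 with the erythroid covariate (unstimulated and restimulated Th1, restimulated Th17), 34 with centring in unstimulated Th17 cells, and 27, 8 and 13 with only the compared groups (restimulated Th1, unstimulated and restimulated Th17). Without single arrays they ran 23 to 39, 31 to 47, 11 to 21 and 9 to 36. For restimulation, Th1 cells at day 5 gave 3 with loess, 13 with genes above the median and 18 with only the compared groups (2 to 6 without single arrays). Th1 cells at day 15 gave 14 with genes above the median, 1 with the erythroid covariate and 0 with only the compared groups (1 to 9). Th17 cells at day 5 gave 4 with loess, 2 with centring and 3 with genes above the median (1 to 2), and at day 15 6 with the erythroid covariate and 12 with only the compared groups (12 to 24).

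Between cell types, day 5 unstimulated gave 5 with the erythroid and 1 with the myeloid covariate (1 to 3 without single arrays), and day 15 restimulated gave 5 with loess, 3 with centring, 5 with genes above the median, 8 with the erythroid covariate and 0 with the replicate block (0 to 4). Type by day gave 2, 4 and 2 in unstimulated cells (loess, genes above the median, erythroid covariate) and 1 and 4 in restimulated cells (loess, erythroid covariate; 0 to 1 without single arrays). Day by restimulation in Th17 cells gave 1 with loess and 6 with the erythroid covariate (0 to 1). The replicate block, where the numbers were taken to pair the samples, gave 0 higher and 6 lower with restimulation in Th1 cells at day 5 and 0 and 1 in Th17 cells at day 5, and 0 calls between types at day 5 restimulated. Between days the numbers were not taken to pair samples, although same-numbered Th1 arrays also deviated together. There the block gave 28, 41, 21 and 39 calls. With the erythroid covariate the sign reversed for Ndufa4l2 between days in restimulated Th17 cells (0.463), and with restimulation in Th17 cells at day 15 for Ndufa9 (0.040), Ndufb9 (0.216), Ndufc2 (0.028), Ndufs1 (0.164) and Uqcrc1 (0.047). In a 150-base window the YY1 letters were in 1.30% and the E-box in 2.60% of members. The cause of these changes was not tested. Counts in this section stand without the share of all genes called in each alternative.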
